A study of Mus musculus with 10 samples.

Results

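GABA-A receptors are chloride channels opened by γ-aminobutyric acid (GABA), and the data described here are the RNA levels of 7 genes that code for their subunits. The genes are the α subunits Gabra2, Gabra3, Gabra4 and Gabra5, the β subunits Gabrb1 and Gabrb2, and the γ subunit Gabrg1. They were taken by symbol and are 7 of the 24421 gene rows counted in each of 10 pools of mouse vagal sensory neurons. The same rows include 12 further GABA-A receptor subunit genes, of which 8 are described beside the members.

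A GABA-A receptor assembles from several subunits around one chloride pore. GABA binds where a β subunit meets an α subunit, benzodiazepines bind where an α subunit meets a γ subunit, and γ subunits also help to hold the receptor at synapses. In most mature brain neurons GABA inhibits by letting chloride in, whereas primary sensory neurons accumulate chloride through the cotransporter Slc12a2 and are usually depolarised by GABA.

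The pools came from the nodose ganglion, whose neurons derive from the epibranchial placodes, and the jugular ganglion, whose neurons derive from the neural crest. The study asked how capsaicin-sensitive C-fibre neurons of the 2 ganglia differ, and each of the 5 groups had 2 replicate pools. In the Trpv1 selection, cells were picked by colour from 2 Trpv1-tdTomato mice, in which Trpv1-Cre switches on a tdTomato reporter at the ROSA26 locus. The Trpv1+ nodose and Trpv1+ jugular pools held 30 red neurons each, and the Trpv1- nodose pools held 15 nodose neurons without red fluorescence from the same mice. The reporter also marks cells that expressed Cre earlier and no longer do. In the capsaicin selection, cells were picked from C57BL/6 mice after a calcium assay. The capsaicin nodose pools, of 14 and 15 neurons, held cells that capsaicin activated together with the P2X agonist α,β-methylene-ATP. The capsaicin jugular pools, of 15 and 16 neurons, held cells that capsaicin activated and α,β-methylene-ATP did not. Ages of the mice were not given in the sources used here, and neither was the number of C57BL/6 mice. The sources used here do not say how the cells of the 2 mice were divided between the replicates of the Trpv1 selection, so p-values measure the spread between pools, which may be technical.

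Total counts ran from 148452506 to 167704327 per Trpv1-selected pool and from 17666710 to 30810863 per capsaicin-selected pool. Levels are given as CPM, counts normalised to one common depth for the 10 pools. The floor of detection was taken as 3 counts, which stood for 0.0116 to 0.0154 CPM with Trpv1-selected pools, which were deeper, and for 0.118 to 0.176 CPM with capsaicin-selected pools. Reads were amplified without molecular identifiers, so these floors cover counting error only. The markers matched the labels: 5 sensory neuron genes summed to 5012 CPM or more in every pool, the nodose gene Hoxb5 was at 233 to 417 CPM in nodose and at 0 to 0.196 CPM in jugular pools, and Trpv1 was at 0.0334 and 0.0348 CPM in the Trpv1- pools. The selection went together with the sequencing core, the strain and the depth, and these cannot be told apart. Replicate pools differed in many transcripts: among genes at 10 CPM or more in one pool, 8.49% to 36.9% were under 1 CPM in the replicate pool.

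The 3 members whose reads appeared in both Trpv1- nodose pools and in neither Trpv1+ nodose pool were Gabra5, Gabrb2 and Gabrg1. Of 7968 genes at 1 CPM or more in both Trpv1- nodose pools, 40 (0.502%) had no count in either Trpv1+ nodose pool, these 3 among them. The 3 genes were singled out by this pattern, so the share lends no support. The 250 bases before their transcription starts are shown because these 3 genes shared that pattern, although they lie on 3 chromosomes. The sequences are RefSeq's for GRCm38.p6, written 5′ to 3′ along the gene's strand. They were searched on both strands for the TATA box TATAAA, the CCAAT box and the GC box GGGCGG, and matches are in capitals, with a match on the other strand shown as its reverse complement.
Gabra5, chr7:57510060-57510309, minus strand: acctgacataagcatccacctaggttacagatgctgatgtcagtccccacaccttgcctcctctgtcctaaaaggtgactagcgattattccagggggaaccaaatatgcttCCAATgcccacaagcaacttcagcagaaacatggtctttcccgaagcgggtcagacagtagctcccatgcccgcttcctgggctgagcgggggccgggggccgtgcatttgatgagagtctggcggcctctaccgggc
Gabrb2, chr11:42420190-42420439, plus strand: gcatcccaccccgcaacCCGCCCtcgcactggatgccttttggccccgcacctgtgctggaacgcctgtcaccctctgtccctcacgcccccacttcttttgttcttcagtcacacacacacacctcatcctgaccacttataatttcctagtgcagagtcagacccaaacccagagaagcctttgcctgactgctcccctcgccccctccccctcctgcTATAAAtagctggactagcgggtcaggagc
Gabrg1, chr5:70842618-70842867, minus strand: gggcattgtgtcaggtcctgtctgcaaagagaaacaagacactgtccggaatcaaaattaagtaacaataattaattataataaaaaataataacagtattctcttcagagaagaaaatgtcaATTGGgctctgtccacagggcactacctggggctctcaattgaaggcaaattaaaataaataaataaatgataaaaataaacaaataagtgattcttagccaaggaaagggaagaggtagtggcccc
The windows shown had little in common in these letters, but this depends on the start taken for Gabrb2. The Gabra5 window had a CCAAT match, 56.4% G+C and 9 CpG dinucleotides. The Gabrb2 window, before the first of 3 RefSeq starts, had a TATAAA and a GGGCGG match, 58.8% G+C and 8 CpG. The Gabrg1 window had a CCAAT match, 35.6% G+C and 1 CpG. Of 32851 promoter windows of the same length, 12.4% held TATAAA, 33.8% CCAAT and 32.7% GGGCGG, and the medians were 52.4% G+C and 6.00 CpG. None of the 3 windows shown overlapped an exon of GENCODE vM21, and the Gabrb2 window shown lies within that annotation's span of the gene.

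Of the 7 members, 4 form a cluster over 1398 kb of chromosome 5 (GRCm38, GENCODE vM21). In order they are Gabrg1 (chr5:70751047-70842617, minus strand), Gabra2 (chr5:70957597-71095849, minus strand), Gabra4 (chr5:71569749-71658308, minus strand) and Gabrb1 (chr5:71658113-72149037, plus strand). The starts of Gabra4 and Gabrb1 face each other and their exons share 46 bases on opposite strands, so that reads there could not be assigned if strand was not used in counting. Gabra5 is at chr7:57407672-57510059 on the minus strand, and 148 of its exon bases lie opposite the gene Gm9962. Gabrb2 is at chr11:42419757-42629028 on the plus strand and Gabra3 at chrX:72432681-72656848 on the minus strand. Whether counting used strand was not given in the sources used here.

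Most values of the 7 members were 0. Of 70 values (7 genes in 10 pools), 42 were 0, 4 were 1 to 3 counts and 24 were above 3 counts. Of the 24, 11 were still under 1 CPM, and only 4 of all 70 values reached 10 CPM. No member reached 10 CPM in both pools of any group, whereas 7504 genes, 30.7% of the rows, did so. The number of members above 3 counts was 5 in each Trpv1- nodose pool, 2 in each Trpv1+ nodose pool, 2 and 3 in the Trpv1+ jugular pools, 2 and 3 in the capsaicin jugular pools and 0 in both capsaicin nodose pools. In pooled cells, fewer cells that express a gene and less RNA per cell cannot be told apart.

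**Figure D1:**
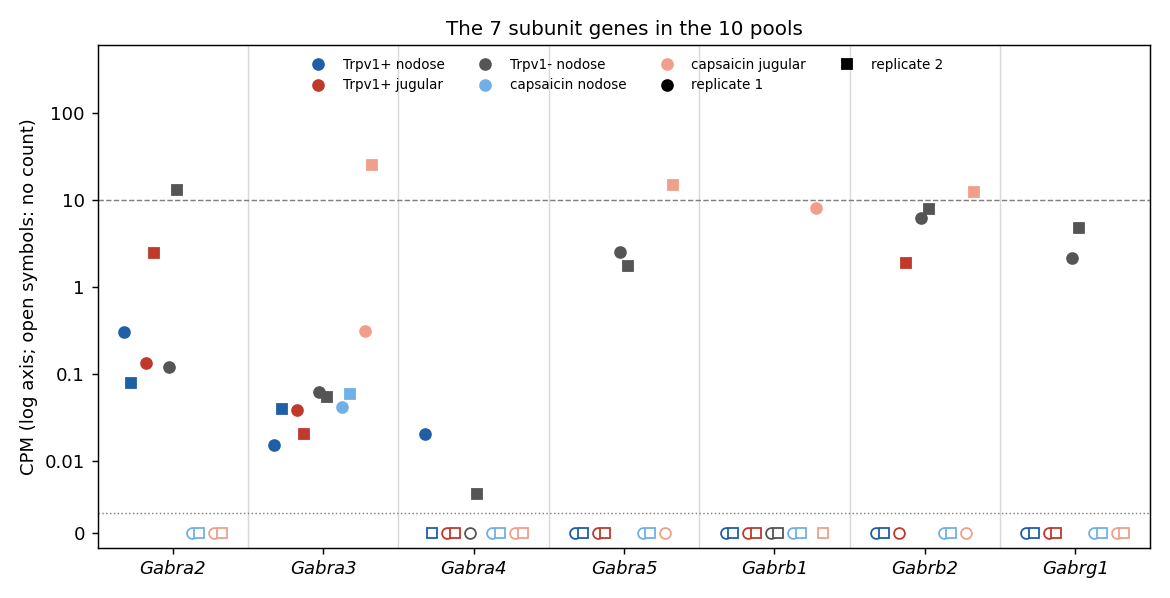
CPM (log axis) of the 7 subunit genes in each of the 10 pools, coloured by group, with circles for replicate 1 and squares for replicate 2. Open symbols at the bottom mark pools without a count and the dashed line marks 10 CPM, which only 4 of the 70 values reached.

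Among the α subunits, Gabra5 is best known from receptors outside synapses in the hippocampus. It had 648 and 418 counts (2.50 and 1.74 CPM) in the Trpv1- nodose pools and 0 counts in all 4 Trpv1+ pools and in both capsaicin nodose pools. In the capsaicin jugular pools it had 0 and 356 counts, the latter 14.8 CPM. The Trpv1- pools therefore lay above all Trpv1+ pools without overlap, while the gene was read in only one of the capsaicin jugular replicates.

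Gabra2, an α subunit common at forebrain synapses, had uneven replicates. It had 31 and 3136 counts (0.120 and 13.1 CPM) in the Trpv1- nodose pools and 31 and 609 counts (0.134 and 2.46 CPM) in the Trpv1+ jugular pools. In the Trpv1+ nodose pools it had 59 and 16 counts (0.304 and 0.0785 CPM), and in all 4 capsaicin-selected pools 0. One pool of each pair held nearly all of its reads in the first 2 of these groups, and all 3 groups of the Trpv1 selection overlapped.

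Gabra3 was the only member with at least 1 count in every pool. It had 3 to 16 counts in the 6 pools of the Trpv1 selection (0.0154 to 0.0618 CPM), 1 and 1 in the capsaicin nodose pools, and 8 and 600 in the capsaicin jugular pools (0.314 and 25.0 CPM). The 25.0 CPM was the highest value of any member, and the replicate pool of the same group was at 0.314 CPM. Gabra4 was close to absent, with 4 counts in one Trpv1+ nodose pool, 1 count in one Trpv1- nodose pool and 0 in the other 8 pools.

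The β subunit Gabrb2 belongs to a very common brain receptor. It had 1626 and 1884 counts (6.28 and 7.86 CPM) in the Trpv1- nodose pools and 0 in all 4 nodose pools selected for Trpv1 or capsaicin. The Trpv1+ jugular pools had 0 and 471 counts (0 and 1.90 CPM) and the capsaicin jugular pools 0 and 294 counts (0 and 12.3 CPM). The Trpv1- pools were the only pair in which both replicates held Gabrb2 reads. Gabrb1 had 206 counts (8.08 CPM) in the first capsaicin jugular pool and none in the other 9.

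Gabrg1, the γ subunit among the members, had the narrowest distribution among members found in 2 pools of a group. It had 550 and 1144 counts (2.13 and 4.77 CPM) in the Trpv1- nodose pools and 0 in the other 8. Of 7968 genes at 1 CPM or more in both Trpv1- nodose pools, 7 (0.0879%) had no count in the other 8 pools, and Gabrg1 was one of them. With 0 counts, counting error alone left room for up to 0.0154 CPM in the Trpv1+ pools and 0.176 CPM in the capsaicin-selected pools. These values are not upper limits of the RNA level. Among genes at 1 CPM or more in a Trpv1+ pool, up to 5.47% had no count in the replicate pool. In the capsaicin-selected pools this share reached 19.4%.

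The comparison of Trpv1- with Trpv1+ nodose neurons asks what sets the capsaicin-insensitive neurons of this ganglion apart. Set against 3 counts per pool in the Trpv1+ pools, the Trpv1- mean was 469-fold higher for Gabrb2 (7.07 CPM), 229-fold for Gabrg1 (3.45 CPM) and 141-fold for Gabra5 (2.12 CPM). That floor covers counting error only, so these folds are not lower limits of the difference in RNA. Of the 7 members 5 passed the filter on low counts, and 4 of these, the 3 genes and Gabra3, had both Trpv1- pools above both Trpv1+ pools, as did 22.4% of all genes tested. The 3 genes also had an unadjusted p under 0.05, as did 6.57% of all genes with the higher level in the Trpv1- pools. Since the 3 genes had no count in the Trpv1+ pools, they passed the filter through the Trpv1- pools alone and had to differ in this direction, so these counts lend no support. A gene was called when its adjusted p was at most 0.1, its fold change at least 2 and its CPM at least 10 in both pools of a group. No member reached that CPM in both pools of any group, so with all pools kept none could be called, whatever its p-value. The shares of all genes called are therefore given, here and below, as background only. By edgeR's quasi-likelihood test no member was called, against 0.0527% of all genes tested (6 of 11386), and 11.1% of all genes had an unadjusted p under 0.05. The unadjusted p was 0.0149 for Gabra5, 0.0166 for Gabrb2 and 0.0172 for Gabrg1 in edgeR, and the Benjamini-Hochberg adjusted p was 0.366 for each.

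The other tool gave smaller p-values for the same 3 genes. In DESeq2 the adjusted p was 0.000146 for Gabra5, 4.76e-06 for Gabrb2 and 5.28e-05 for Gabrg1, at levels too low for the CPM limit, so that none was called. Since the 3 genes had no count in the Trpv1+ pools, they could differ only towards the Trpv1- pools, and these p-values lend no support. DESeq2 gave 16.1% of all genes an adjusted p of at most 0.1 and called 2.10%. Over the edgeR alternatives the adjusted p of each of the 3 genes ran from 0.355 to 0.792. Gabra2 and Gabra3 also had higher means in the Trpv1- pools, with log2 fold changes (Trpv1+ minus Trpv1-) of -5.05 ± 3.02 (SE) and -1.04 ± 0.935 and adjusted p of 0.702 and 0.852 in edgeR. The value for Gabra2 rested on one pool and was 0.64 without the second Trpv1- pool.

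**Figure D2:**
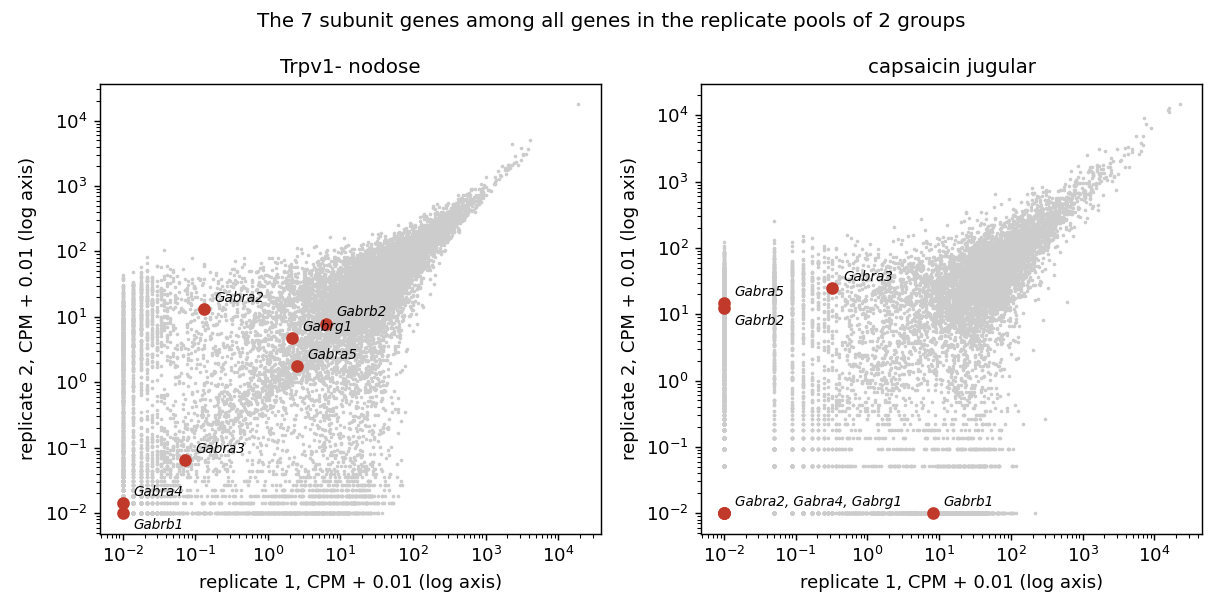
Replicate 2 against replicate 1 for all genes with a count (grey, CPM + 0.01 on log axes) in the Trpv1- nodose pools (left) and the capsaicin jugular pools (right) and the 7 subunit genes in red. Gabra5, Gabrb2 and Gabrg1 lie near the diagonal on the left, whereas on the right Gabra5, Gabrb2 and Gabrb1 lie on an axis because one replicate had no count.

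Markers of satellite glia and Schwann cells were present in all groups of the Trpv1 selection. The 10 genes summed to 2846 and 3180 CPM in the Trpv1- and 3323 and 3367 CPM in the Trpv1+ nodose pools. Within this list Sox10 was at 10.2 and 2.24 CPM in the Trpv1- pools and at 0 and 0.177 CPM in the Trpv1+ nodose pools, and Kcnj10 was at 13.1 and 0.0876 against 0.252 and 0.221 CPM. Their part in the values of Gabra5, Gabrb2 and Gabrg1 was not tested. The 6 leukocyte and macrophage genes summed to at most 0.0167 CPM in the Trpv1- pools.

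Against the Trpv1+ jugular pools, the Trpv1- nodose mean was 275-fold higher for Gabrg1 and 170-fold higher for Gabra5, again relative to 3 counts per pool. The same limit of that floor holds here. In edgeR the unadjusted p was 0.0167 and 0.0142 and the adjusted p 0.288 for both, where 12.9% of all genes had an unadjusted p under 0.05 and 7.35% had one with the higher level in the Trpv1- pools. Of the 5 members tested, 4 (Gabra3, Gabra5, Gabrb2 and Gabrg1) had both Trpv1- pools above both jugular pools, as did 23.4% of all genes tested. For Gabra5 and Gabrg1, at 0 in the jugular pools, the filter fixed that order, and the count lends no support. Gabrb2 differed by a log2 fold change of 2.88 ± 3.22 (SE, adjusted p = 0.860 in edgeR), since one jugular pool held 471 counts and the other none. No member was called by edgeR or DESeq2, and edgeR called 0.226% of all genes (26 of 11506) and DESeq2 3.57%. In DESeq2 2 members, Gabra5 and Gabrg1, had an adjusted p of at most 0.1, as did 17.6% of all genes. Both genes had no count in the jugular pools, so this count lends no support either. This comparison and the preceding one share the Trpv1- pools.

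Between nodose and jugular neurons, no member was called in either selection. In the Trpv1 selection edgeR could test only Gabra2, with a log2 fold change (nodose minus jugular) of -2.78 ± 2.16 (SE), an unadjusted p of 0.252 and an adjusted p of 0.796. Without the second jugular pool the value was 0.49. No member was called and none had an unadjusted p under 0.05, against 0.318% of genes called (35 of 10990) and 11.9% with such an unadjusted p. DESeq2 gave 1 of the 4 members it tested, Gabrb2, an adjusted p of at most 0.1 and called none, against 18.6% and 3.05% of all genes. Gabrb2 had no count in the nodose pools and counts in a single jugular pool, so that value lends no support.

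In the capsaicin selection no member passed the filter on low counts in edgeR, which called 0% of 8181 genes although 14.1% had an unadjusted p under 0.05. Gabra3, Gabra5, Gabrb1 and Gabrb2 were each high in one jugular pool only, and for Gabra5, Gabrb1 and Gabrb2 the other jugular pool and both nodose pools were all at 0. DESeq2 gave these 4 members adjusted p of 0.0204 to 0.0666 and called none of them. Each of these values rested on a single jugular pool and lends no support. In that tool 25.9% of all genes had an adjusted p of at most 0.1 and 6.04% were called. In the edgeR alternatives that tested these genes, their adjusted p ran from 0.343 to 0.925. Over both selections, with selection as a covariate, 3 members were tested and none called (0.577% of all genes were called, 69 of 11959, and 11.1% had an unadjusted p under 0.05). DESeq2 gave 3 of 6 members an adjusted p of at most 0.1 and called none, against 19.7% and 7.40% of all genes. These 3 were Gabra5, Gabrb1 and Gabrb2, all without a count in the nodose pools, and Gabra5 and Gabrb1 had counts in a single jugular pool. They could differ only towards the jugular pools, so this count lends no support. Gabrb2, at 0 in all nodose pools of that fit and above 0 in 2 of 4 jugular pools, had an unadjusted p of 0.0345 and an adjusted p of 0.389 in edgeR. Since Gabrb2 passed the filter through the jugular pools alone, its direction was fixed. The difference between selections in the ganglion contrast could be estimated for Gabra3 alone, where it was 8.27 ± 4.64 (log2, SE, unadjusted p = 0.107, adjusted p = 0.569 in edgeR). It was called for 0% of all genes in edgeR, where 10.3% had an unadjusted p under 0.05, and the DESeq2 adjusted p for Gabra3 was 0.0355, over edgeR alternatives 0.504 to 1.0. DESeq2 gave 17.9% of all genes an adjusted p of at most 0.1 for this difference and called 7.19%, none of them a member.

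Of the 12 further subunit genes, 7 had no count in any pool (Gabra6, Gabrd, Gabre, Gabrp, Gabrr1, Gabrr2 and Gabrr3). These code for an α subunit, the δ, ε and π subunits and the 3 ρ subunits. The γ subunit Gabrg3 had 206 counts (8.08 CPM) in the first capsaicin jugular pool and none in the other 9.

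To set genes against each other, CPM was divided by the length of the merged exons. In the Trpv1- nodose pools Gabrb2 was at 0.988 and 1.24 CPM per kb, Gabra5 at 0.842 and 0.586 and Gabrg1 at 0.270 and 0.607. On this scale Gabrb2 lay above both other genes in each pool, and Gabra5 lay above Gabrg1 in the first pool and near it in the second. Gabra2 was at 0.0157 and 1.71 CPM per kb in the same pools, below the other 3 genes in the first and above them in the second. In the second capsaicin jugular pool Gabra3 was at 6.37, Gabra5 at 4.99 and Gabrb2 at 1.93 CPM per kb, and in the first Gabrb1 was at 0.584 and Gabra3 at 0.0800 CPM per kb. These levels were not tested against each other.

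The genes that hold, build and move these receptors were read more often. Of 20 genes for anchoring, assembly and trafficking, 19 averaged 10 CPM or more in at least one group. The highest were Gabarapl2, Gabarapl1, Gabarap, Kif5a and Nsf. Gphn codes for gephyrin, the scaffold of inhibitory synapses. It was at 34.7 and 1.65 CPM in the Trpv1+ nodose, 14 and 0.0929 in the Trpv1+ jugular, 40.5 and 9.19 in the Trpv1- nodose, 0.0417 and 0.117 in the capsaicin nodose and 47.3 and 79.5 in the capsaicin jugular pools. Lhfpl4, a receptor partner at inhibitory synapses, was at 145 and 129 CPM in the Trpv1- nodose pools, at 37.9 to 91.5 CPM in the Trpv1+ pools and at 73.8 and 81.4 CPM in the capsaicin jugular pools. In the capsaicin nodose pools it was at 0.125 and 74.9 CPM.

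In edgeR none of these 20 genes was called in any of the 6 comparisons. In each, 1 or 2 of the 15 to 20 tested had an unadjusted p under 0.05, against 10.3% to 14.1% of all genes. The median log2 fold change of the list was 0.30 between Trpv1+ nodose and jugular pools (0.03 over all genes tested). It was 0.29 between Trpv1+ and Trpv1- nodose pools (0.01 over all genes) and 0.25 between capsaicin nodose and jugular pools (-0.02 over all genes). Between Trpv1- nodose and Trpv1+ jugular pools it was 0.37 (-0.02 over all genes). Over both selections it was -0.84 (-0.18 over all genes), and for the difference between selections 0.55 (0.44 over all genes). DESeq2 called Gphn, higher in the capsaicin jugular than nodose pools, and called Gphn and Clptm1 for the difference between selections.

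Genes that make, move and break down GABA were low. Of 9 genes only Abat, the GABA transaminase, averaged 10 CPM or more in a group, and Slc32a1, the vesicular GABA transporter, had no count. Gad2, a GABA-synthesising enzyme, was at 3.91 and 3.83 CPM in the Trpv1- nodose pools, at 1.69 to 3.17 CPM in the 4 Trpv1+ pools and at 0 to 3.86 CPM in the capsaicin-selected pools. Gad1, the other such enzyme, had 2103 counts (9.06 CPM) in one Trpv1+ jugular pool and at most 1 count in each other pool. None of the 9 genes was called by edgeR or DESeq2 in any comparison, and between Trpv1+ and Trpv1- nodose pools the median log2 fold change of the 3 tested was -0.81 (0.01 over all genes tested), with 0 at an unadjusted p under 0.05.

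Of the chloride cotransporters, Slc12a2, which brings chloride in, was at 75.8 and 58.1 CPM in the Trpv1+ nodose, 20.9 and 108 in the Trpv1+ jugular, 24.7 and 26.4 in the Trpv1- nodose, 0.0417 and 0.117 in the capsaicin nodose and 49.3 and 65.5 in the capsaicin jugular pools. Slc12a5, the neuronal cotransporter that takes chloride out, had at most 2 counts in any pool. None of the 5 cotransporters was called by edgeR. The ganglion contrast of Slc12a2 in the capsaicin selection had a log2 fold change of -9.82 ± 2.75 (SE), with an adjusted p of 0.352 in edgeR. DESeq2 called it there, over both selections and for the difference between selections.

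Of the metabotropic GABA-B receptor and its KCTD partners, 4 of 5 genes (Gabbr1, Gabbr2, Kctd8 and Kctd16) averaged 10 CPM or more in a group. Gabbr1 had reads in every pool, from 18.7 to 213 CPM, and was higher in the Trpv1+ nodose pools (213 and 206 CPM) than in the Trpv1- nodose (88.7 and 132) and Trpv1+ jugular pools (58.1 and 82.8). None of the 5 was called by edgeR, and DESeq2 called Gabbr2 and Kctd16 (capsaicin selection) and Gabbr2 and Kctd8 (both selections), higher in jugular pools. The contrast of Gabbr1 between Trpv1+ nodose and jugular pools had a log2 fold change of 1.56 ± 0.445 (SE), an unadjusted p of 0.0160 and an adjusted p of 0.321 in edgeR. In the capsaicin selection Gabbr1 overlapped between the ganglia: the nodose pools were at 18.7 and 75.9 CPM, the jugular ones at 40.8 and 24.1 CPM. Among 6 genes for endogenous allosteric ligands, Dbi, Tspo and Srd5a1 averaged 10 CPM or more in a group, and none of the 6 was called by either tool. In edgeR 3 of the 3 tested had an unadjusted p under 0.05 between Trpv1+ and Trpv1- nodose pools, against 11.1% of all genes. Between Trpv1+ nodose and jugular pools 2 of 4 did (11.9% of all genes), and over both selections 1 of 4 (11.1%). In the other comparisons none did. Dbi codes for the diazepam binding inhibitor and was at 358 and 494 CPM in the Trpv1+ nodose pools and at 206 to 261 CPM in the Trpv1- nodose and Trpv1+ jugular pools.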

How the data were processed

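RNA of 10 pools of vagal neurons was amplified with an oligo-dT, ultra-low input kit and sequenced at separate cores for the 2 selections. Per the methods and labels, the authors ran CASAVA 1.8.2, aligned reads to mm10 with TopHat2 2.0.9 and Bowtie2 2.1.0.0, and counted them with HTSeq. The deposited values are raw counts per gene symbol. The annotation and strand setting were not given in the sources used here.

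CPM was counts over DESeq2 size factors of the 10 pools, scaled by the geometric mean total. Counts per kb used merged exons of GENCODE vM21. Each comparison was fitted on its own pools with edgeR 4.0.16 (TMM, filterByExpr, quasi-likelihood test, Benjamini-Hochberg adjustment) in R 4.3.3, with the thresholds of the study. For a gene with a group at 0 in all its pools, the fitted fold change is not given here. An exact permutation test of 2 against 2 pools cannot go below p = 0.33. Alternatives were DESeq2 1.42.0 (Wald test), DESeq2 size factors in edgeR, no filter, a replicate block, 1 fit to the 10 pools, a CPM limit on each comparison's own size factors, leaving out Rn45s or 1 pool, and, for levels, TMM-normalized and plain-total CPM. The scripts were tested on simulated data.

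The 7 genes and the lists were chosen with earlier results of these data known. All 7 are named. List genes were named, the highest first, when called or at a mean of 10 CPM in a group. Some genes of background interest below that mean in every group (Slc32a1, Slc12a5, Slc12a7, Gad1, Gad2, Sox10, Kcnj10) were named after their values were seen. Genes most alike in pattern were to be named for members at 10 CPM in both pools of a group, and there were none. Promoter windows came from RefSeq for all 7 members. Some list genes and what rests on them are not reported here. Protein sequences were not analysed here.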

Additional observations from a re-analysis of the deposited data

How the results depend on the processing

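No member was called in any comparison under any alternative run. With all pools kept, the CPM limit alone settled this, as no member reached 10 CPM in both pools of a group. Only a fit with 1 pool left out, or the CPM limit on a comparison's own size factors, could have differed. Numbers of genes called over the whole table moved. Between Trpv1+ nodose and jugular pools it was 35, and 59 without the filter, 459 with DESeq2, 13 with the replicate block and 0 to 0 with each pool left out. In the capsaicin selection it was 0, and 122, 734 and 20 under the same alternatives, 110 in the fit to 10 pools and 0 to 29 with each pool left out. Between Trpv1+ and Trpv1- nodose pools it was 6, and 10, 321 and 1, and 0 to 0. Between Trpv1- nodose and Trpv1+ jugular pools it was 26, and 47, 537 and 2, with 14 in the fit to 10 pools and 1 to 2 with each pool left out. Over both selections it was 69, and 222 without the filter, 1154 with DESeq2, 213 in the fit to 10 pools and 38 to 89 with each pool left out. For the difference between selections it was 0, and 95, 1121, 7 and 0 to 195. The cause was not tested.

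No pairing of the pools by replicate number was seen. The correlation of same-numbered pools' deviations was 0.00221, -0.0137, -0.0126 and 0.0177 in the 4 comparisons of 2 groups. These values do not settle whether pools with the same number came from the same mouse, which the sources used here do not say. The replicate block could not change a member's call, since the CPM limit settled these.

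The log2 fold changes that turned with 1 pool left out were those of Gabra2, at -4.03 to 0.49 between Trpv1+ nodose and jugular pools, -6.29 to 0.64 between Trpv1+ and Trpv1- nodose pools, -3.41 to 5.52 between Trpv1- nodose and Trpv1+ jugular pools and -3.36 to 0.44 over both selections. Of 35 group means of the members, 3 moved by more than 1 SD with TMM-normalized CPM and 4 with plain totals.

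With 2 pools per group and 8.49% to 36.9% of abundant genes nearly lost from one replicate, a count of 0 in a capsaicin-selected pool says less than one in the deeper Trpv1 selection.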

Other observations

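Gabrb1 and Gabrg3 both had exactly 206 counts in the first capsaicin jugular pool and 0 counts in the other 9 pools. In that pool 5 genes had 206 counts, 2 of them with no count elsewhere, and 107 genes had counts in that pool alone. The genes lie on chromosomes 5 and 7. Of the 6 fibroblast and endothelium marker genes, Dcn was at 239 and 17.0 CPM and Col1a2 at 0 and 24.6 CPM in the first and second capsaicin jugular pools, and the other 4 had no count in either.

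Besides Gabrg1, the genes at 1 CPM or more in both Trpv1- nodose pools with no count in the other 8 were Lamp5, Npm2, Ramp2, Wdr72, 0610040B10Rik and D330050G23Rik. These names follow from that limit alone and were listed after their values were seen. Of the same 7968 genes, 40 (0.502%) had no count in either Trpv1+ nodose pool.

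Sox10, a transcription factor of glia and Schwann cells, had 2627 and 537 counts in the Trpv1- nodose pools and at most 36 counts in the other 8. The chloride cotransporter Slc12a7 had 3016 and 576 counts in the same 2 pools and at most 24 counts in each of the others.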
